A study of Mus musculus with 16 samples.

Results

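Ccl6, Ccl9 and Ccl24 are 3 of the 32285 genes in the deposited matrices of leukocytes from mouse B16 melanomas, and all 3 were detected in all 8 matrices. They were chosen by measured values, with earlier results of these data known. These were their level in tumour macrophages, high for Ccl6 and Ccl9, and a lower Ccl24 level in the dendritic cells of 1 comparison. That comparison, CD40 antibody against isotype in B2m-null tumours, is therefore given for Ccl24 as values with no test, in every cell type, as is the difference between the CD40 changes of the 2 tumour kinds. The B2m-null isotype mice also enter the Ccl24 tests between tumour kinds under isotype in macrophages, monocytes and their gates. Those p-values are therefore not independent of the choice of Ccl24. All 3 genes passed the filter on low counts in macrophages, monocytes and dendritic cells.

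Ccl6 and Ccl9 are closely related mouse CC chemokines with no direct human counterpart. Both act on the receptor Ccr1, which is carried by monocytes, macrophages and neutrophils. Both are made at a high level by myeloid cells, and stimulation through interleukin-4 raises Ccl6 in macrophages. Ccl24, or eotaxin-2 by its older name, acts on Ccr3 and attracts eosinophils, and it is known as a product of alternatively activated macrophages.

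The tumours came from Bro4.1 B16 melanoma cells, either control or lacking B2m, the light chain of MHC class I, placed under the skin of C57BL/6J mice. The mice received 100 mcg of an agonist antibody against CD40, an activating receptor on macrophages, dendritic cells and B cells, or rat IgG2a as isotype control, by intraperitoneal injection on days 6, 9 and 12, with harvest on day 14. Leukocytes were enriched on CD45 beads, labelled with 1 hashtag antibody per mouse, pooled by group and run on droplet lanes with 3' counting. The groups were control isotype (5 mice in 2 pools), control CD40 (2 mice in 1 pool run on 2 lanes), B2m-null isotype (5 mice in 2 pools) and B2m-null CD40 (4 mice in 2 pools). Mice are named here by lane and hashtag number. Because control CD40 is 1 pool, its pool and its treatment cannot be told apart.

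In the sample labels the B2m loss is a mouse genotype, and in the design text it belongs to the tumour cells. Melanoma-like cells had B2m levels of 193 to 463 CPM, counts scaled to a common total of UMIs, over the 4 B2m-null lanes and 1086 to 2052 CPM in the pools with control tumours. Macrophage-like cells had 2811 to 5613 CPM in every pool. The 8 lanes held 116552 cell barcodes and 541.1 M unique molecular identifiers (UMIs), 46.0 to 99.3 M per lane, and any 2 lanes shared 41 to 92 barcodes. After removal of hashtag doublets 85591 cells could be assigned to 1 of 16 mice, and 73122 of them passed the filters on genes and mitochondrial counts. Clusters were named only from preset markers, and the names below mean macrophage-like, monocyte-like and so on. C1qa, a complement gene of macrophages, was at 2000 to 2479 CPM in macrophages and at 681 to 1079 CPM in monocytes over the 4 groups. Ly6c2, a gene of classical monocytes, was at 19.01 to 65.5 CPM in macrophages and at 205 to 463 CPM in monocytes. Flt3, a gene of dendritic cells, was at 55.4 to 140 CPM in dendritic cells and below 3 CPM in macrophages and monocytes. There were 28818 macrophages (502 to 6453 per mouse), 9599 monocytes and 4429 dendritic cells (cDC1, cDC2 and mature dendritic cells joined).

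Ccl6 and Ccl9 lie side by side on chromosome 11 of mm10, within the cluster of CC chemokine genes. Ccl6 spans 83587882 to 83593087 and Ccl9 spans 83572919 to 83578636, both on the minus strand with 4 exons, and 9245 bases separate them. Ccl24 lies on chromosome 5 from 135569937 to 135573049, on the minus strand with 3 exons. The 150 bases before the start sites of Ccl6 and Ccl9 are shown because these neighbours had the most similar pattern across myeloid classes, though not within macrophages. They are taken from RefSeq (GRCm38.p6), run 5′ to 3′ on the minus strand, and capitals mark every stretch of at least 10 bases that both contain.
Ccl6, chr11:83593088-83593237: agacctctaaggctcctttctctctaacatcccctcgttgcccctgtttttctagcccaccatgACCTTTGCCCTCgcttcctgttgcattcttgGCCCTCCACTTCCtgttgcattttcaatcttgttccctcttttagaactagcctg
Ccl9, chr11:83578637-83578786: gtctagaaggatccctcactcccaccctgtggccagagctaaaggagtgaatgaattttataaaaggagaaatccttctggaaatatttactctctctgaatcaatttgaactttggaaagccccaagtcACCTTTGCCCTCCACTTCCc

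The stretches are GCCCTCCACTTCC, which begins 55 bases before the start of Ccl6 and 14 bases before that of Ccl9, and ACCTTTGCCCTC, which begins 86 and 20 bases before them. In Ccl9 the stretches overlap and form 1 run. Of the motifs searched on both strands and reported here, the AP-1 motif TGANTCA occurred once in the Ccl9 window and not in that of Ccl6, and it occurred in 4.27% of 27025 promoters of the same length. Neither window held the STAT6 motif, TTC and GAA with 4 bases between them (3.12% of promoters), the PU.1 motif GAGGAAGT (1.68%) or the NF-kB motif, GGGA and TTCC with 2 bases between them (0.770%). These are matches of letters and say nothing on binding.

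Across cell classes Ccl6 and Ccl9 were high in macrophages and monocytes, intermediate in neutrophils and plasmacytoid dendritic cells, lower in the other dendritic cells and lowest in lymphocytes. Over all mice, Ccl6 was at 2147 ± 492 CPM in macrophages (SD, n = 16), 1918 ± 548 CPM in monocytes (n = 16), 1497 ± 632 CPM in neutrophils (n = 11), 833 ± 485 CPM in plasmacytoid cells (n = 10), 435 ± 200 CPM in cDC2 (n = 14) and 317 ± 211 CPM in cDC1 (n = 13). Macrophages, monocytes and neutrophils were neighbours whose spreads overlapped, and so did cDC2, mature dendritic cells and cDC1. CD8 T cells had 41.3 ± 21.6 CPM (n = 16). Ccl9 had nearly the same order, with 1124 ± 384 CPM in monocytes, 997 ± 260 CPM in macrophages, 511 ± 364 CPM in neutrophils and 349 ± 143 CPM in cDC2, against 40.8 ± 32.1 CPM in CD8 T cells.

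Ccl24 was distributed otherwise and varied much more from mouse to mouse. It was at 275 ± 624.98 CPM in neutrophils (SD, n = 11), 186 ± 279 CPM in monocytes (n = 16), 74.4 ± 135 CPM in cDC2 (n = 14), 49.0 ± 57.2 CPM in macrophages (n = 16) and 0.847 ± 1.58 CPM in CD8 T cells (n = 16), and every one of these spreads overlapped with its neighbour. Of all Ccl24 counts, monocytes held 43.9% and macrophages 39.0%, while these classes held 10.7% and 46.4% of all UMIs. Of all Ccl6 counts, macrophages held 74.2% and monocytes 14.6%, and of all Ccl9 counts 70.4% and 17.6%. In the cluster of 86 mast cell-like or basophil-like cells, the pooled level was 4522 CPM for Ccl6 and 1619 CPM for Ccl9, and no Ccl24 count was seen. Classes were cut from expression in the same cells, so these levels are given without a test.

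**Figure D1:**
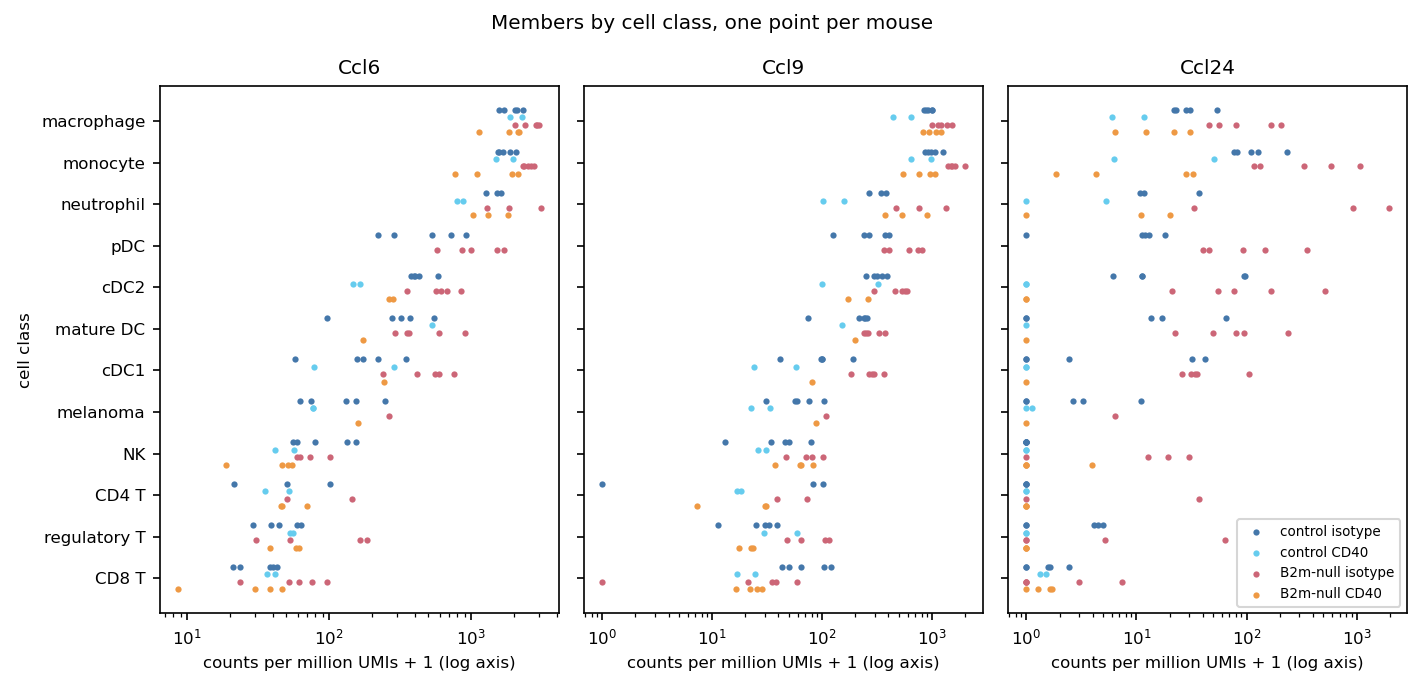
Level of Ccl6, Ccl9 and Ccl24 in 12 cell classes, in CPM plus 1 on a log axis, with 1 point per mouse with at least 20 cells of the class, coloured by group. Among the classes shown, Ccl6 and Ccl9 are highest in macrophages and monocytes and far lower in T cells. The mast cell-like or basophil-like class is not shown. The Ccl24 points of a class range widely, from 0.856 to 1067 CPM in monocytes and from 0 to 1965 CPM in neutrophils.

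With every cell thinned to 1000 UMIs, Ccl6 was detected in 58.2%, 58.1%, 67.5% and 54.7% of macrophages in control tumours (isotype, then CD40) and in B2m-null tumours (likewise), against 3.11%, 3.90%, 7.22% and 4.83% of CD8 T cells. Ccl9 was detected in 48.5%, 32.5%, 58.3% and 49.5% of macrophages, against 5.24%, 1.51%, 2.41% and 2.47% of CD8 T cells. Ccl24 was detected in 1.93%, 0.588%, 4.93% and 1.51% of macrophages and in at most 0.0889% of CD8 T cells in any group. Thinning left out 455, 1303, 304 and 312 macrophages below that depth. Without thinning, where median depths were 4667, 2861.5, 5879 and 6049 UMIs, the macrophage shares were 81.8%, 75.5%, 89.2% and 77.6% for Ccl6, 78.7%, 53.5%, 87.1% and 79.3% for Ccl9, and 5.95%, 1.63%, 14.4% and 5.41% for Ccl24. The median depth of CD8 T cells was 3600, 1245, 3190.5 and 2398 UMIs.

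Ccl24 counts sat in few cells. After thinning, the top 1% of macrophages held 67.1% of the Ccl24 counts of the class, against 7.51% for Ccl6 and 8.63% for Ccl9, and 97.8% of macrophages had none. The mean in these macrophages was 0.0369 UMIs per cell for Ccl24, 2.26 for Ccl6 and 0.995 for Ccl9. The part of this difference in level was not tested. In monocytes the top 1% held 63.2% of the Ccl24 counts and 95.4% of cells had none. Among monocytes with at least 1 Ccl24 UMI, the mean was 2.81 UMIs in control isotype (159 cells), 1.33 in control CD40 (6 cells), 4.53 in B2m-null isotype (218 cells) and 1.88 in B2m-null CD40 (16 cells), and the highest single cell held 38, 2, 41 and 4 UMIs in turn. Both the share of cells and the count per detected cell were thus lower in the CD40 groups. Of macrophages with Ccl24, 84.3% also had Ccl6, against 59.2% of those without. Of macrophages with Ccl9, 76.8% had Ccl6, against 44.7% of those without.

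Ccl6 in whole macrophages was called in no contrast between groups. Its values were 2100, 2311, 1701, 1572 and 2044 CPM in the control isotype mice, 2271 and 1885 CPM in the control CD40 mice, 2020, 2906, 2855, 3009 and 2379 CPM in the B2m-null isotype mice, and 1859, 1143, 2143 and 2154 CPM in the B2m-null CD40 mice. The B2m-null isotype mice were the highest as a group, and each group overlapped with at least 1 other. In edgeR's quasi-likelihood test, with counts summed per mouse and p-values adjusted over all 11967 genes by Benjamini-Hochberg, Ccl6 passed the threshold of 0.05 in no macrophage contrast. The log2 change under CD40 was 0.21 ± 0.22 (SE, adjusted p = 0.514) in control and -0.32 ± 0.18 (adjusted p = 0.162) in B2m-null tumours, and between tumour kinds under isotype it was 0.38 ± 0.17 (adjusted p = 0.151).

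Ccl9 in macrophages was lower under CD40 in control tumours. Its values were 909, 999.7, 875, 845.0 and 997.6 CPM in control isotype, 640.2 and 442 CPM in control CD40, 994.7, 1355, 1205, 1503 and 1137 CPM in B2m-null isotype, and 939.9, 828.0, 1077 and 1212 CPM in B2m-null CD40. Both control CD40 mice lay below all 14 others. Ccl9 fell by 0.66 on the log2 scale in control tumours (SE 0.18, edgeR adjusted p = 0.013) and was higher in B2m-null than in control tumours under CD40 (0.94 ± 0.19, edgeR adjusted p = 0.00545). In B2m-null tumours its change under CD40 was -0.09 ± 0.14 (edgeR adjusted p = 0.663), and the difference between the 2 CD40 changes was 0.58 ± 0.22 (edgeR adjusted p = 0.0775, with 18.9% of genes called). Of all genes tested in macrophages, 22.5% were called in the first contrast, 36.0% for CD40 in B2m-null tumours, 10.9% between tumour kinds under isotype and 12.5% under CD40. Without mouse 2 of control CD40, the larger of its 2 mice, the first change was -0.46 (adjusted p = 0.207) and the second 0.74 (adjusted p = 0.0921), and without lane 1 of control isotype the first was -0.64 (adjusted p = 0.072). The other fits that left out 1 mouse or 1 lane called both. With counts summed per lane in place of per mouse, the changes were -0.78 and 1.02 and neither was called. Control CD40 is 1 unit in that fit, since its 2 lanes are of 1 pool, and cells with no hashtag were counted too.

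Ccl24 in macrophages was higher in B2m-null than in control tumours under isotype, and in both tumour kinds the CD40 mice lay below the isotype mice. Its values were 29.3, 52.7, 21.7, 21.02 and 27.5 CPM in control isotype, 10.8 and 5.05 CPM in control CD40, 44.2, 79.4, 205, 164 and 55.2 CPM in B2m-null isotype, and 11.1, 5.41, 20.8 and 29.6 CPM in B2m-null CD40. The isotype groups overlapped in 1 mouse each, the control group's 52.7 CPM lying above the B2m-null group's lowest, 44.2 CPM. The B2m-null isotype mice also gave dendritic values by which Ccl24 was chosen, so the next test is not independent of that choice. The change between tumour kinds under isotype was 1.80 ± 0.45 (SE, edgeR adjusted p = 0.0175). This call was lost without mouse 3 of lane 1 of control isotype (1.70, adjusted p = 0.0543), without lane 1 of B2m-null isotype (1.87, adjusted p = 0.0781) and without lane 1 or lane 2 of control isotype (2.12, adjusted p = 0.158, and 1.61, adjusted p = 0.0832), and with counts summed per lane (1.73). In control tumours the CD40 mice lay below all isotype mice, with a change of -1.93 ± 0.69 that missed the threshold (edgeR adjusted p = 0.0528). It also missed the threshold in 20 of 35 alternative fits, and the others called it. In B2m-null tumours the CD40 mice also lay below all isotype mice, and the fitted value was -2.37 ± 0.50, given as a description.

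**Figure D2:**
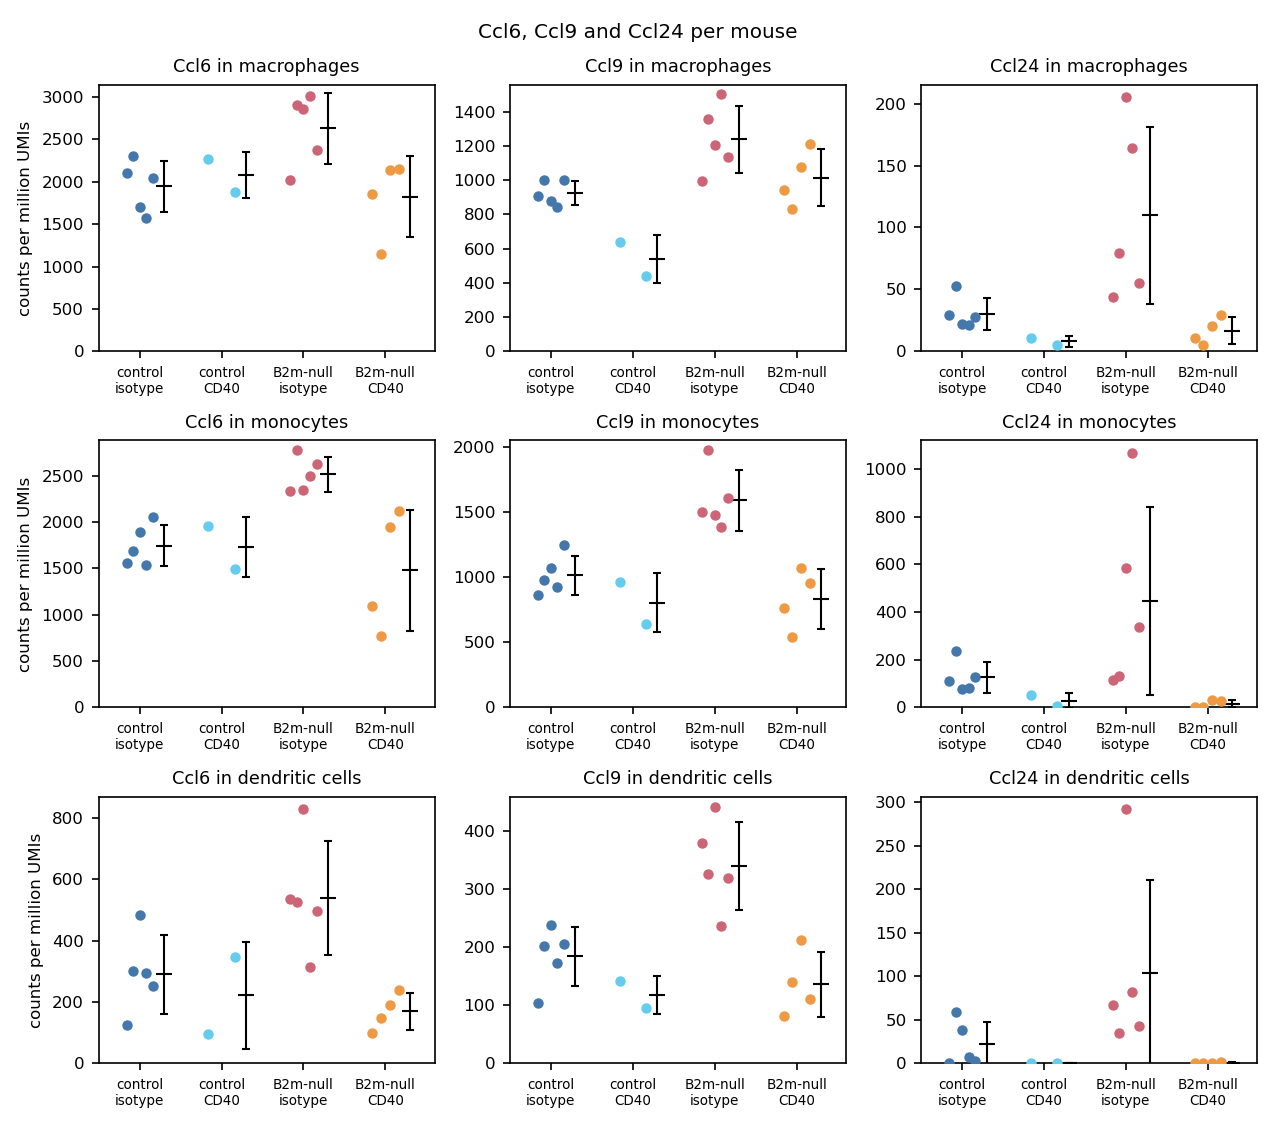
Level of each chemokine (CPM, linear axes) in macrophages, monocytes and dendritic cells by group, with 1 point per mouse and bars for the mean ± SD. Macrophage Ccl9 is lowest in the 2 control CD40 mice, monocyte Ccl9 is highest in the B2m-null isotype mice, and Ccl24 of the CD40 mice lies below that of the isotype mice of the same tumours in macrophages and monocytes.

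In monocytes all 3 chemokines were highest in B2m-null tumours under isotype. Monocyte Ccl6 was at 1563, 1686, 1891, 1532 and 2053 CPM in control isotype, 1960 and 1498 CPM in control CD40, 2333, 2781, 2346, 2495 and 2630 CPM in B2m-null isotype, and 1092, 769.7, 1942 and 2120 CPM in B2m-null CD40. The B2m-null isotype mice lay above all others, and within B2m-null CD40 both mice of lane 1 lay below both of lane 2. Ccl6 fell by 0.56 on the log2 scale under CD40 in B2m-null tumours (SE 0.21, edgeR adjusted p = 0.04), where 33.3% of the 9942 genes tested were called. Without lane 1 of B2m-null CD40 the change was -0.07 (adjusted p = 0.721), with stricter hashtag assignment it was -0.31 (adjusted p = 0.326), and the call was lost in 9 of 16 fits without 1 mouse and 5 of 8 without 1 lane. In control tumours the change was 0.07 ± 0.25 (edgeR adjusted p = 0.906).

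Monocyte Ccl9 was at 863, 977, 1069, 923 and 1246 CPM in control isotype, 966.5 and 643 CPM in control CD40, 1502, 1982, 1480, 1387 and 1613 CPM in B2m-null isotype, and 766, 540.5, 1071 and 959 CPM in B2m-null CD40. All 5 B2m-null isotype mice lay above the other 11. Ccl9 fell by 0.73 under CD40 in B2m-null tumours (SE 0.17, edgeR adjusted p = 0.00207) and was higher in B2m-null than in control tumours under isotype by 0.61 ± 0.16 (edgeR adjusted p = 0.0313), where 3.49% of genes were called. The first call was lost without lane 1 of B2m-null CD40 (-0.41, adjusted p = 0.0608) and with stricter hashtag assignment (-0.52, adjusted p = 0.0569). The second was lost in 7 of 16 fits without 1 mouse and in 3 of 8 without 1 lane, the weakest being that without lane 1 of control isotype (0.53, adjusted p = 0.445). With counts summed per lane the second was 0.56 and was not called, and nor was the change of monocyte Ccl6 (-0.52). In control tumours the CD40 change of Ccl9 was -0.25 ± 0.21 (edgeR adjusted p = 0.517), and the 2 CD40 changes did not pass the test of their difference (-0.48 ± 0.26, edgeR adjusted p = 0.247). Between tumour kinds under CD40, where 7.49% of genes were called, no chemokine passed in monocytes.

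Monocyte Ccl24 was at 109.6, 235, 76.0, 81.2 and 126 CPM in control isotype, 50.1 and 5.29 CPM in control CD40, 116, 131, 586, 1067 and 335 CPM in B2m-null isotype, and 3.25, 0.856, 31.8 and 27.5 CPM in B2m-null CD40. Every CD40 mouse lay below every isotype mouse. The change was -2.41 ± 1.05 in control tumours (edgeR adjusted p = 0.17) and -4.72 ± 0.76 in B2m-null tumours as a description, and between tumour kinds under isotype it was 1.83 ± 0.57 (edgeR adjusted p = 0.0772).

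The monocyte class was made of different clusters in different groups. Cluster 9, led by Ly6i, Saa3 and Nos2, held 70.5% of monocytes under CD40 and 4.72% under isotype in B2m-null tumours, and 37.9% and 12.9% in control tumours. The 8 neutrophil markers summed to 38.8 to 69.0 CPM per mouse in monocytes of B2m-null isotype and to 99.1 to 254 CPM in B2m-null CD40, and their part in the results was not tested. Cluster 3, led by Retnla, Ccl24 and Fn1, held 65.6% in B2m-null isotype and 20.7% in B2m-null CD40. Within cluster 3 the mean Ccl24 level was 138 CPM in control isotype, 43.6 in control CD40, 532 in B2m-null isotype and 23.7 in B2m-null CD40, and mean Ccl6 was 2180, 2299, 2794 and 2285 CPM. Ccl24 is among the leading genes of cluster 3, though the chemokines were not among the genes used for clustering. The gate for classical monocytes (its markers include Chil3, Vcan, Ly6c2 and Plac8) uses none of the 3 chemokines. It held 60.9% and 36.2% of monocytes in control tumours under isotype and CD40, and 52.5% and 44.1% in B2m-null tumours. In B2m-null CD40 this exceeds clusters 3 and 8 together, so cells of cluster 9 passed the gate too, and their part was not tested.

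Within that gate the changes in B2m-null tumours were larger and did not rest on 1 mouse or lane. Ccl6 was at 982.6, 1471, 1563, 1176 and 1846 CPM in control isotype, 1594 and 957.8 CPM in control CD40, 2528, 2708, 2187, 1788 and 2504 CPM in B2m-null isotype, and 1031, 636.2, 1171 and 1221 CPM in B2m-null CD40. It fell by 1.04 under CD40 in B2m-null tumours (SE 0.19, edgeR adjusted p = 0.000272), and Ccl9 fell by 1.22 (SE 0.20, edgeR adjusted p = 0.000101), against 25.0% of genes called. Both calls were kept in all 16 fits without 1 mouse and all 8 without 1 lane, where the changes ranged from -1.37 to -0.78 and from -1.4995 to -0.999. In control tumours the changes were -0.12 (adjusted p = 0.863) for Ccl6 and -0.60 ± 0.26 (adjusted p = 0.228) for Ccl9 by the same edgeR test. The difference between the 2 CD40 changes of Ccl6 was -0.92 ± 0.30 (edgeR adjusted p = 0.0508). Under isotype both were higher in B2m-null tumours, Ccl6 by 0.70 ± 0.18 (edgeR adjusted p = 0.0345) and Ccl9 by 0.70 ± 0.18 (edgeR adjusted p = 0.0433), with 2.10% of genes called. These calls were lost in 8 and 10 of 16 fits without 1 mouse and in 3 of 8 each without 1 lane, the weakest being those without lane 1 of control isotype (0.60, adjusted p = 0.459, and 0.54, adjusted p = 0.522). Ccl24 was higher by 1.86 ± 0.43 (edgeR adjusted p = 0.0187), a call lost in 3 of 16 and 3 of 8 fits, with 0.86 (adjusted p = 0.292) without lane 2 of B2m-null isotype. That Ccl24 test is not independent of the choice of the gene.

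Dendritic cells carried less Ccl6 and Ccl9 than macrophages and monocytes, and both were lower in them under CD40 in B2m-null tumours. Dendritic Ccl6 was at 124, 299, 482, 293 and 251 CPM in control isotype, 96.8 and 345 CPM in control CD40, 534, 525.9, 830, 313 and 495 CPM in B2m-null isotype, and 98.1, 148, 189.7 and 240 CPM in B2m-null CD40. Dendritic Ccl9 was at 103, 202, 238, 173 and 205 CPM in control isotype, 141 and 94.9 CPM in control CD40, 379, 326, 441.5, 237 and 319 CPM in B2m-null isotype, and 81.7, 140, 212 and 111 CPM in B2m-null CD40. For both genes all 4 B2m-null CD40 mice lay below all 5 B2m-null isotype mice. Ccl6 fell by 1.42 (SE 0.36, edgeR adjusted p = 0.0185) and Ccl9 by 1.12 (SE 0.25, edgeR adjusted p = 0.0108), where 8.66% of 9272 genes were called. Under isotype Ccl9 was higher in B2m-null tumours by 0.84 ± 0.20 (edgeR adjusted p = 0.0277), where 1.68% of genes were called, and the groups overlapped in 1 mouse each. Without lane 1 of B2m-null isotype these values were -1.06 (adjusted p = 0.204), -0.89 (adjusted p = 0.128) and 0.60 (adjusted p = 0.494), and 2, 1 and 6 of 16 fits without 1 mouse also lost the call. With counts summed per lane none of the 3 was called (-0.84, -0.71 and 0.63), nor with classes from clustering at resolution 2 (-0.45, -0.30 and 0.68). Of all 37 alternative fits of each, 25, 30 and 23 kept the call. Pooled levels of macrophage and monocyte genes in the class also differed between isotype and CD40 in B2m-null tumours. In that order C1qa was at 257 and 143 CPM, Adgre1 at 78.8 and 51.0 CPM and Chil3 at 48.6 and 22.9 CPM. Ly6c2 went the other way, at 67.0 and 105 CPM, and the part of such cells in the result was not tested. In control tumours, where 2.06% of genes were called, neither gene passed the test (Ccl6 -0.23 ± 0.42, adjusted p = 0.863, and Ccl9 -0.68 ± 0.33, adjusted p = 0.351, both by edgeR). Neither passed the test of the difference between the CD40 changes, where 3.2% of genes were called.

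The dendritic cell class held 199 cells in control CD40 and 221 in B2m-null CD40, against 2218 and 1791 in the isotype groups. Its 5 CD8 T cell markers summed to 113 to 675 CPM over all mice, and the part of such cells in the class was not tested. Ccl24 was at 0.807, 58.6, 38.4, 7.79 and 2.59 CPM in control isotype and at 66.65, 34.8, 291.8, 81.8 and 43.0 CPM in B2m-null isotype. The fitted difference was 1.96 ± 0.61, given as a description because the B2m-null isotype values are among those by which Ccl24 was chosen. No Ccl24 count was seen in either control CD40 mouse or in 3 of 4 B2m-null CD40 mice, and the fourth had 1.61 CPM. Pooled over mice, the B2m-null groups had 736 counts in 10393503 UMIs under isotype and 1 in 1352726 under CD40. The control groups had 297 counts in 12579915 UMIs under isotype and 0 in 890931 under CD40. No fold is given, since both CD40 groups rest on at most 1 count.

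Macrophages were then split by 6 gates set on marker genes other than the chemokines, and a further gate on Nos2, the inducible nitric oxide synthase gene, was set on macrophages and monocytes together. The levels of Ccl6 and Ccl9 differed by gate. A cell could pass several gates. The resident-like gate (Lyve1, Cd163, Folr2, Cbr2, F13a1 and Mrc1) held 8574 cells, the Arg1 gate 6287, the Mmp12 gate 6579, the Vcam1 gate 4173, the interferon-signature gate (Rsad2, Ifit1, Ifit2, Ifit3, Isg15 and Cmpk2) 2767, the Nos2 gate 2251 and the Ctsk gate 845. In control isotype mice Ccl6 was at 3105 ± 628 CPM in the resident-like gate (SD, n = 5), about the level of the Arg1, Ctsk and Mmp12 gates (2954, 2789 and 2745 CPM), and at 1152 CPM in the Vcam1 gate. Ccl9 was lowest in the Vcam1 gate too, at 477 ± 66.6 CPM, against 1592 ± 115 CPM in the Ctsk gate, 1506 ± 154 in the Arg1 gate and 1423 ± 194 in the Mmp12 gate. Macrophages in no gate had 941 CPM of Ccl6 and 510 CPM of Ccl9.

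Ccl9 showed the clearest pattern over the gates. It was lower under CD40 in control tumours in 5 of 6 macrophage gates and in none of 6 in B2m-null tumours, and under CD40 it was higher in B2m-null than in control tumours in 4 of 6 and in the Nos2 gate. The share of all genes called higher in that contrast was 0.545% to 2.7% in these gates. The share of all genes called lower in the first contrast was 3.62% to 9.80% over the gates other than Ctsk, where it was 0.812%. In the Mmp12 gate, set on a macrophage elastase, Ccl9 was at 1521, 1705, 1204, 1319 and 1367 CPM in control isotype, 760 and 647 CPM in control CD40, 1332, 1480, 1351, 2005 and 1313 CPM in B2m-null isotype, and 1418, 1472, 1515 and 1725 CPM in B2m-null CD40. Both control CD40 mice lay far below all 14 others, whose groups overlapped. Ccl9 fell by 0.89 in control tumours (SE 0.17, edgeR adjusted p = 0.000887, 14.8% of genes called), changed by 0.24 ± 0.13 in B2m-null tumours (edgeR adjusted p = 0.176, 24.8% called), and was 1.16 ± 0.17 higher in B2m-null than in control tumours under CD40 (edgeR adjusted p = 0.000708, 5.84% called). The difference between the 2 CD40 changes was 1.13 ± 0.21 (edgeR adjusted p = 0.00325, 6.71% called). These 3 calls held without any 1 mouse or lane. Control CD40 has 2 mice. Here and throughout, a fit without 1 of them rests on a lone mouse that is assumed to vary like the mice of the other groups. Its 2 lanes hold the same 2 mice of 1 pool, so leaving out 1 of these lanes cannot show an effect of the pool. Lanes as units were not run for gates.

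In the interferon-signature gate Ccl9 was at 1283, 1251, 1118, 972.1 and 1335 CPM in control isotype, 351.3 and 372.9 CPM in control CD40, 1403, 1972, 1371, 2052 and 1434 CPM in B2m-null isotype, and 1113, 837.6, 1141 and 1544 CPM in B2m-null CD40. The 2 control CD40 mice were again below all others. In control tumours Ccl9 fell by 1.58 (SE 0.23, edgeR adjusted p = 4.56e-05, 10.0% of genes called), a call kept without any 1 mouse or lane. Under CD40, Ccl9 was 1.70 ± 0.24 higher in B2m-null tumours (edgeR adjusted p = 0.000698, 1.87% called), a call also kept without any 1 mouse or lane. The difference between the CD40 changes was 1.29 ± 0.28 (edgeR adjusted p = 0.0109, 2.86% called), lost without mouse 1 of control CD40 (1.20, adjusted p = 0.101) and without lane 2 of B2m-null CD40 (0.94, adjusted p = 0.0868), lane 1 of B2m-null isotype (1.15, adjusted p = 0.06) or lane 1 of control isotype (1.24, adjusted p = 0.074). In the Vcam1 gate, set on an adhesion molecule of C1q-rich macrophages, Ccl9 was at 468.5, 502.8, 540.1, 505.9 and 366.7 CPM in control isotype, 307.2 and 275.2 CPM in control CD40, 584.6, 824.3, 754.2, 695.5 and 578.9 CPM in B2m-null isotype, and 611.1, 757.8, 728.5 and 742.6 CPM in B2m-null CD40. Both control CD40 mice lay below all control isotype mice, these lay below all B2m-null mice, and the 2 B2m-null groups overlapped. Under CD40, Ccl9 was 1.25 ± 0.17 higher in B2m-null tumours (edgeR adjusted p = 0.000279, 1.96% of genes called), a call kept without any 1 mouse or lane. The fall in control tumours (-0.52 ± 0.16, edgeR adjusted p = 0.0438, 10.3% called), the rise between tumour kinds under isotype (0.44 ± 0.12, edgeR adjusted p = 0.0221, 7.97% called) and the difference of the CD40 changes (0.81 ± 0.21, edgeR adjusted p = 0.0337, 2.78% called) were lost in 8, 2 and 6 of 16 fits without 1 mouse and in 3 of 8 each without 1 lane. Without lane 1 of control isotype they were -0.42 (adjusted p = 0.187), 0.59 (adjusted p = 0.0662) and 0.68 (adjusted p = 0.147).

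In the Arg1 gate, set on arginase 1, Ccl9 fell by 0.63 in control tumours (SE 0.17, edgeR adjusted p = 0.0224, 10.5% of genes called) and was 0.77 ± 0.18 higher in B2m-null tumours under CD40 (edgeR adjusted p = 0.017, 4.71% called), and these calls were lost in 2 and 4 of 16 fits without 1 mouse and in 2 of 8 each without 1 lane. Without lane 2 of B2m-null CD40 the second was 0.36 (adjusted p = 0.274). In the Ctsk gate, set on a cathepsin, Ccl9 fell by 1.65 in control tumours (SE 0.32, edgeR adjusted p = 0.00563, 3.31% called), with -1.26 (adjusted p = 0.152) without mouse 2 of control CD40, and the call was also lost in 1 of 8 fits without 1 lane (adjusted p = 0.0843) and under both other gate rules (-1.67 and -1.39). The Nos2 gate took 8.26% of macrophages and 7.86% of monocytes in control CD40, and 10.6% and 17.4% in B2m-null CD40. These groups had 1132 and 2692 monocytes, and the part of this makeup in the values was not tested. In this gate the change of Ccl9 in control tumours was -0.73 ± 0.24 (edgeR adjusted p = 0.065, 8.23% called), and under CD40 it was 1.03 ± 0.25 higher in B2m-null tumours (edgeR adjusted p = 0.0241, 2.79% called), a call lost in 4 of 12 fits without 1 mouse and 3 of 8 without 1 lane, with 0.80 (adjusted p = 0.421) without mouse 2 of control CD40 and 0.54 (adjusted p = 0.198) without lane 2 of B2m-null CD40. Further shares of genes called were 0.0384% under isotype in the Nos2 gate, with 1 B2m-null mouse, 0.0159% between tumour kinds under CD40 in the Ctsk gate, 8.84% for the difference of CD40 changes in the Arg1 gate and 23.6% for CD40 in B2m-null tumours in the Vcam1 gate. In the resident-like gate Ccl9 had means of 1181 and 1080 CPM in control tumours under isotype and CD40 and 1278 and 1374 CPM in B2m-null tumours, and its change in control tumours was 0.01 ± 0.14 (edgeR adjusted p = 0.96).

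**Figure D3:**
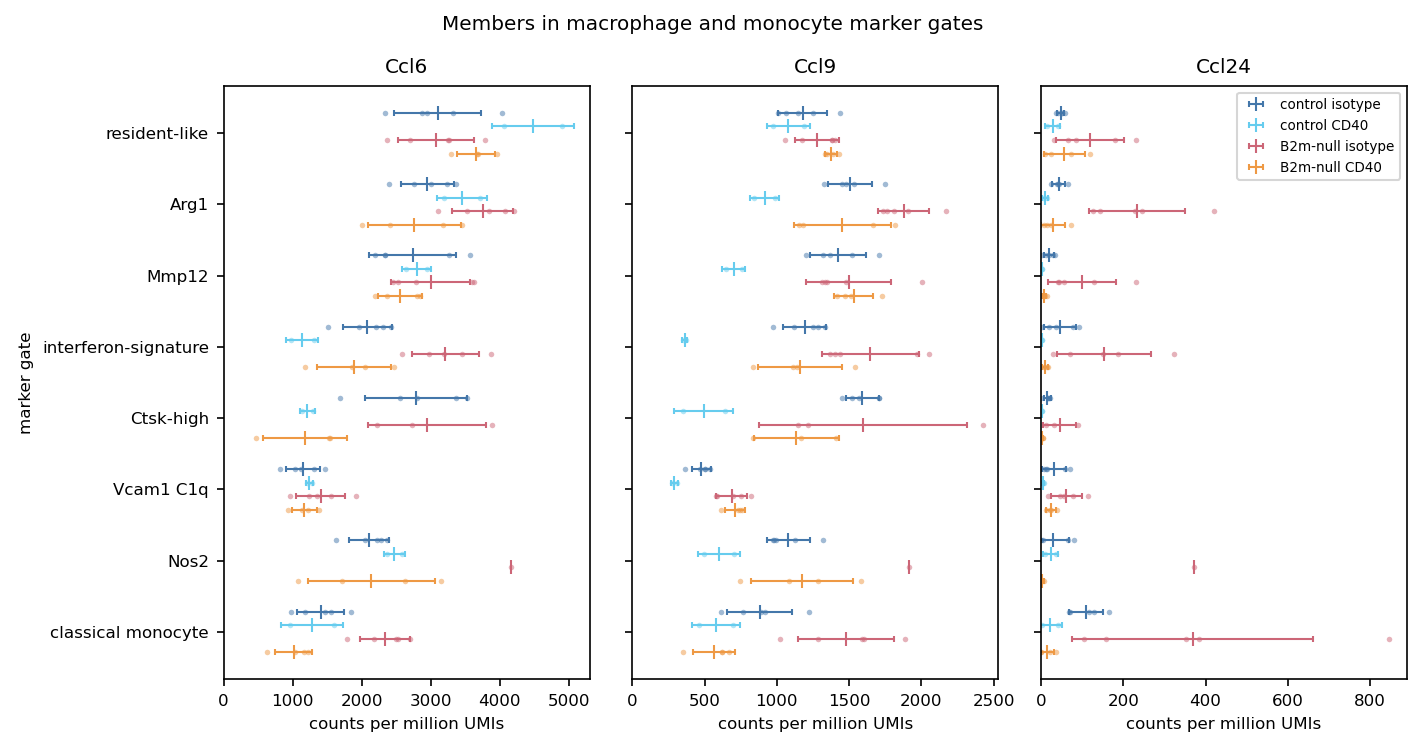
Level of each chemokine (CPM, linear axes) in 6 macrophage gates, the Nos2 gate of macrophages and monocytes, and the classical monocyte gate by group, with 1 point per mouse and bars for the mean ± SD. Ccl9 of both control CD40 mice is below all other mice in every macrophage gate but the resident-like gate, and the mean Ccl24 of the Arg1 gate is highest in B2m-null isotype.

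Ccl6 moved in opposite directions in different gates. In the resident-like gate it was at 3320, 2942, 2875, 2346 and 4041 CPM in control isotype, 4901 and 4060 CPM in control CD40, 2367, 3254, 3784, 3266 and 2703 CPM in B2m-null isotype, and 3674, 3294, 3966 and 3684 CPM in B2m-null CD40. Both control CD40 mice lay above all others. The gate held 26.7% and 15.4% of macrophages in control tumours under isotype and CD40, and 57.7% and 22.2% in B2m-null tumours, and the part of this shift was not tested. Ccl6 rose under CD40 by 0.68 ± 0.17 in control tumours (edgeR adjusted p = 0.00797, 21.1% of genes called) and by 0.42 ± 0.14 in B2m-null tumours (edgeR adjusted p = 0.0425, 18.5% called). The first call was lost without mouse 1 of control CD40 (0.53, adjusted p = 0.135) or lane 1 of control isotype (0.63, adjusted p = 0.0733), and the second in 5 of 16 fits without 1 mouse and 5 of 8 without 1 lane, with 0.33 (adjusted p = 0.336) without lane 2 of B2m-null CD40. With the gate set on thinned cells the second was 0.15 (adjusted p = 0.525), and in all 7 macrophage clusters described below mean Ccl6 was lower under CD40. In this gate no chemokine passed between tumour kinds under isotype (0.852% of genes called) or under CD40 (4.43%). Neither Ccl6 nor Ccl9 passed in it for the difference of CD40 changes (6.95%). In the interferon-signature gate Ccl6 fell, by 0.72 in control tumours (SE 0.23, edgeR adjusted p = 0.0405) and by 0.56 in B2m-null tumours (SE 0.18, edgeR adjusted p = 0.0263, 19.2% of genes called), and in the Ctsk gate it fell by 1.23 in B2m-null tumours (SE 0.36, edgeR adjusted p = 0.0474, 6.02% called). These 3 calls were lost in 6 of 16, 4 of 16 and 10 of 13 fits without 1 mouse and in 2, 5 and 6 of 8 without 1 lane. Without lane 1 of control CD40 the first was -0.46 (adjusted p = 0.232), without lane 1 of B2m-null CD40 the second was -0.45 (adjusted p = 0.1), and without lane 2 of B2m-null isotype the third was -1.13 (adjusted p = 0.347).

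Gate tests of Ccl24 between tumour kinds under isotype also used the B2m-null isotype mice, so they are not independent of its choice. Ccl24 was called higher in B2m-null than in control tumours under isotype in 3 of 6 macrophage gates, and did not pass in the resident-like, Vcam1 and Ctsk gates. In the Arg1 gate it was at 24.7, 65.7, 43.2, 40.02 and 40.4 CPM in control isotype, 14.6 and 5.15 CPM in control CD40, 126.5, 228, 422, 245 and 144 CPM in B2m-null isotype, and 16.01, 7.003, 23.8 and 72.4 CPM in B2m-null CD40. The 5 B2m-null isotype mice lay above the other 11. Under isotype Ccl24 was higher in B2m-null tumours by 2.37 ± 0.37 in the Arg1 gate (edgeR adjusted p = 0.00108, 3.34% of genes called), by 2.21 ± 0.42 in the Mmp12 gate (edgeR adjusted p = 0.00672, 2.69% called) and by 1.86 ± 0.46 in the interferon-signature gate (edgeR adjusted p = 0.0293, 2.09% called). The first 2 calls were lost only without lane 1 of control isotype (2.45, adjusted p = 0.0908, and 1.87, adjusted p = 0.219), and the third in 5 of 16 fits without 1 mouse and 3 of 8 without 1 lane, with 1.66 (adjusted p = 0.315) without lane 1 of control isotype and 1.09 (adjusted p = 0.265) without mouse 1 of lane 2 of B2m-null isotype. Of 6 macrophage gates, Ccl24 was called lower under CD40 in control tumours in 2, the Mmp12 gate (-3.09 ± 0.97, edgeR adjusted p = 0.0337) and the interferon-signature gate (-3.75 ± 1.18, edgeR adjusted p = 0.0425), and both calls were lost in 5 of 16 fits without 1 mouse and in 3 of 8 without 1 lane. Without lane 2 of control CD40 they were -2.96 (adjusted p = 0.0962) and -2.92 (adjusted p = 0.175), and without lane 1 of that pool the second was -8.21 (adjusted p = 0.0854). In B2m-null tumours the fitted values under CD40 were -2.48 ± 0.41, -3.12 ± 0.48 and -3.56 ± 0.62 in the Arg1, Mmp12 and interferon-signature gates and -0.57 ± 0.48 in the resident-like gate, as a description.

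**Figure D4:**
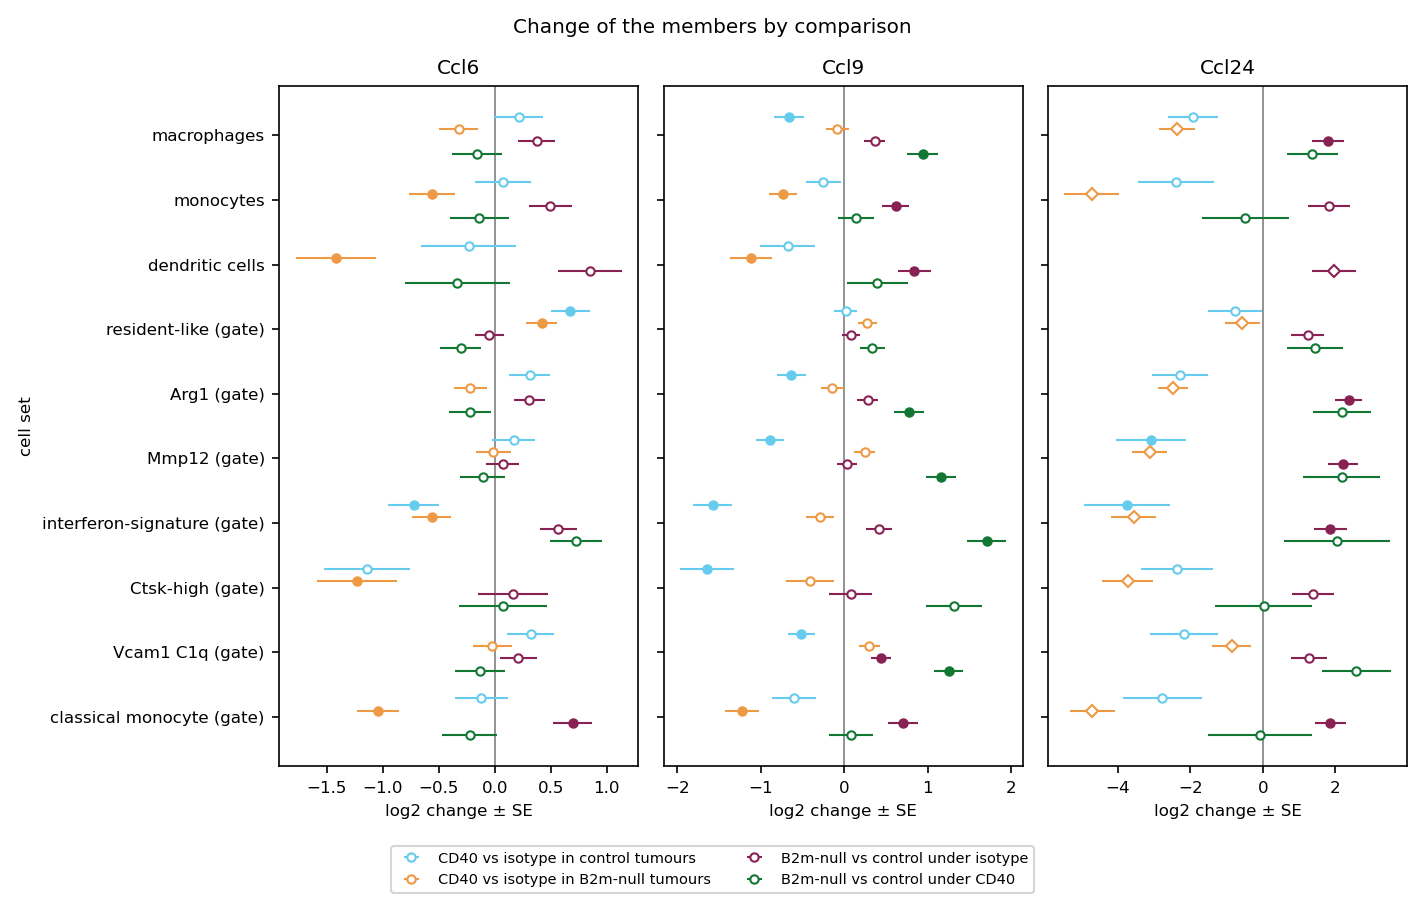
Fitted log2 change ± SE of each chemokine in 10 cell sets for 4 contrasts, with filled points where the edgeR adjusted p is below 0.05 and diamonds for the Ccl24 values given as a description without a test. Ccl9 lies below 0 for CD40 in control tumours in most sets and above 0 for B2m-null against control under CD40, and Ccl24 lies above 0 for B2m-null against control under isotype.

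The makeup of the macrophage class also changed between groups. Cluster 5, led by Gpnmb, H2-M2 and Saa3, held 47.5% of macrophages in control CD40 against 3.98% in control isotype, and 12.9% in B2m-null CD40 against 1.46% in B2m-null isotype. Cluster 4, led by Cd209f, Lyve1 and Cd163, held 9.59% in control isotype and 19.8% to 22.3% in the 3 other groups. Cluster 0, led by Ccl8, C1q genes and Vcam1, held 33.4% and 33.6% in the isotype groups of control and B2m-null tumours and 13.3% and 18.5% in their CD40 groups. Mean Ccl6 in control isotype ranged from 943 CPM in cluster 10, whose leading genes include Ctsk and Mmp9, C1q genes and the histone gene Hist1h1b, to 5180 CPM in cluster 4. The Ctsk gate is a different set of cells, with 2789 CPM. Mean Ccl9 ranged from 438 CPM in cluster 10 to 1604 CPM in cluster 4. In all 7 macrophage clusters the mean of each chemokine was lower under CD40 than under isotype, in control and B2m-null tumours. This is a description, since the clusters were cut from the same cells, though not from these 3 genes.

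Pooled over mice, macrophage Ccl6 in control tumours was 1819 CPM under isotype and 1956 CPM under CD40. With the CD40 group's cluster levels weighted by the isotype group's cluster makeup it was 1319 CPM. This is a pooled description with no spread over mice, in clusters cut from other genes of the same cells. For Ccl9 in control tumours the 3 values were 903, 478 and 393 CPM, and for Ccl24 they were 26.6, 6.10 and 5.47 CPM. In B2m-null tumours they were 2489, 1921 and 1781 CPM for Ccl6, 1198, 1064 and 999.0 CPM for Ccl9, and 81.2, 20.1 and 22.6 CPM for Ccl24.

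**Figure D5:**
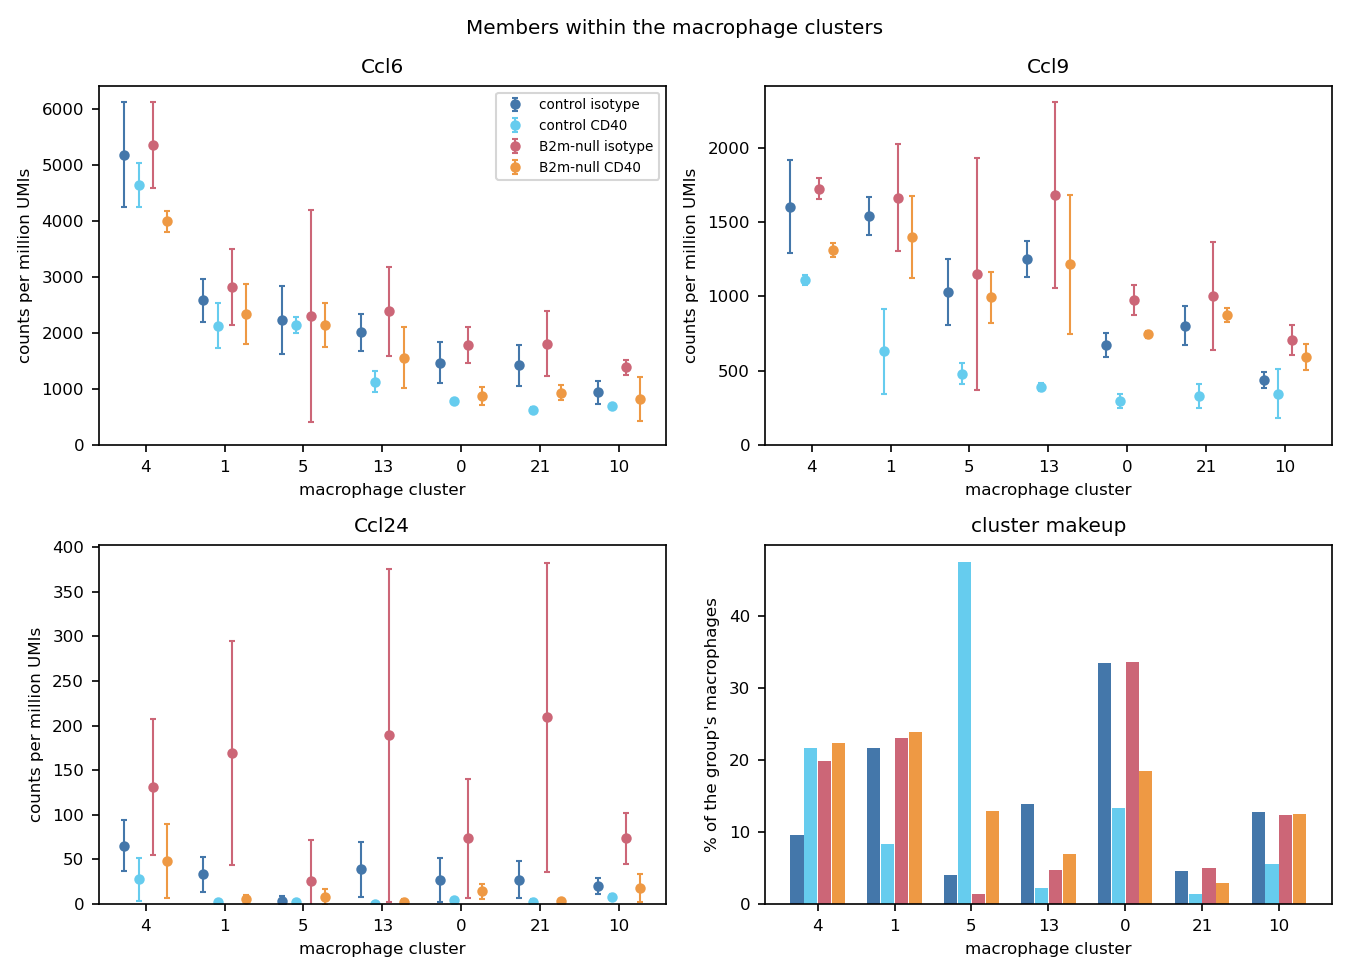
Mean ± SD level over mice of Ccl6, Ccl9 and Ccl24 (CPM, linear axes) in the 7 macrophage clusters by group, with bars for the percent of macrophages that each cluster holds. In each cluster the CD40 means lie below the isotype means of the same tumours, and cluster 5 takes 47.5% of macrophages in control CD40.

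Summed markers of some other cells differed with treatment in the macrophage class. The 8 neutrophil markers summed to 24.5 to 47.4 CPM per mouse in control isotype, 106 to 291 in control CD40, 26.5 to 59.6 in B2m-null isotype and 114 to 457 in B2m-null CD40. The 5 CD8 T cell markers summed to 6.33 to 16.6, 32.1 to 43.9, 6.98 to 11.7 and 20.7 to 27.2 CPM. The 7 melanoma markers, which include Gpnmb and Mitf, summed to 321 to 539.7 CPM in control isotype, 1136 to 1314 in control CD40, 359 to 623 in B2m-null isotype and 537 to 1033 in B2m-null CD40. Their sum was highest in control CD40, where Ccl9 was lowest. It is not specific to melanoma cells, since Gpnmb also led macrophage cluster 5 and Mitf was among the genes most like Ccl6. The 6 eosinophil markers summed to at most 8.53 CPM in any mouse, with 2 or 3 of them at 0 in each group. Their part in the results was not tested.

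The receptors of the 3 chemokines were measured in the same cells. Ccr1, which binds Ccl6 and Ccl9, was at 190, 226, 199, 241 and 196 CPM in macrophages of control isotype, 150 and 99.8 CPM in control CD40, 186, 222, 207, 269 and 165 CPM in B2m-null isotype, and 128, 156, 145 and 159 CPM in B2m-null CD40. In both tumour kinds every CD40 mouse lay below every isotype mouse. Ccr1 fell by 0.65 in macrophages of control tumours (SE 0.18, edgeR adjusted p = 0.0146), while the change in B2m-null tumours was -0.31 ± 0.14 (edgeR adjusted p = 0.0916). In monocytes it fell by 0.53 in control tumours (SE 0.14, edgeR adjusted p = 0.0199, 8.18% of genes called) and by 0.53 in B2m-null tumours (SE 0.11, edgeR adjusted p = 0.00082). Ccr3, the receptor of Ccl24, was at 1.02 to 7.88 CPM in macrophages and was higher in B2m-null than in control tumours under isotype (1.13 ± 0.32, edgeR adjusted p = 0.0307).

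Of 21 CC chemokines on the list, which includes Ccl6, Ccl9 and Ccl24, 14 were tested in macrophages. In control tumours 2 rose under CD40, Ccl27a (2.12) and Ccl5 (1.71), and 5 fell, among them Ccl17 (-3.17), Ccl2 (-1.57), Ccl12 (-1.54) and Ccl9 itself. Of all genes tested, 11.6% were called higher and 10.9% lower. The list's median was -0.42 against -0.01 for all genes. In B2m-null tumours Ccl5, a chemokine that attracts T cells, rose by 2.17, while Ccl24 is given without a test there. None of the rest passed the threshold, where 17.9% of all genes were called higher and 18% lower. Ccl5 also led clusters of CD8 T cells, whose markers were higher in macrophages under CD40, and the part of such cells was not tested. Between tumour kinds under CD40, 4 were higher in B2m-null tumours, Ccl12 (1.481), Ccl2 (1.00), Ccl9 and Ccl7 (0.87), of which Ccl2, Ccl7 and Ccl12 are ligands of the monocyte receptor Ccr2, and Ccl27a was lower (-1.94), where 5.75% of all genes were called higher and 6.78% lower. Ccr2 itself fell under CD40 by 1.36 in control and 1.28 in B2m-null tumours. Under isotype, of the 14, Ccl24 was higher in B2m-null tumours and Ccl5, Ccl4 and Ccl2 were lower. Of all genes, 4.5% were called higher and 6.41% lower there. The log2 changes in this and the next paragraph are from edgeR, with the adjusted p below 0.05.

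Some genes of alternative activation fell under CD40, and genes of the interferon-gamma response rose in B2m-null tumours. Of 22 tested genes of alternative activation in macrophages, 7 fell and 1 rose in control tumours, with Mgl2 (-3.28), Cd209a (-3.06) and Ear2 (-2.80) lowest and the transcription factor Klf4 (0.95) higher. In B2m-null tumours 11 fell and none rose, led by Cd209a (-4.90), Retnla (-3.07), Ear2 (-2.82) and Cd209d (-2.49). Of all genes tested, 1306 and 2159 of 11967 were called lower in these contrasts. The list's medians were -1.04 and -0.90 against -0.01 for all genes in both. Mgl2 and Cd209a also served here as markers of cDC2, and the part of such cells in the macrophage class was not tested. Under isotype 5 were higher in B2m-null tumours, among them the scavenger receptor Cd163 (1.73), Cbr2 (1.05), F13a1 (0.98) and the mannose receptor Mrc1 (0.80), the fifth being Igf1 (0.76), and Pparg was lower (-0.50), with 4.5% of all genes called higher. Of 16 tested interferon-gamma response genes, all 16 rose under CD40 in B2m-null tumours, with Gbp2b (3.73), Nos2 (3.18), Gbp4 (1.79) and Cxcl9 (1.75) highest, and all 16 were lower in B2m-null than in control tumours under isotype, with Gbp2b (-3.76), Gbp4 (-1.90), Socs1 (-1.76) and Cxcl9 (-1.69) lowest. In control tumours 2 rose, Nos2 (1.70) and Cd274 (0.90). Of all genes, 17.9% were called higher in the first of these contrasts, 6.41% lower in the second and 11.6% higher in the last. Klf4, Pparg, Igf1, Ccl12 in control tumours and Ccl7 were named after their values were seen. The list's medians were 1.27, -1.40 and 0.54. The first 2 contrasts share the B2m-null isotype mice and the last 2 the control isotype mice.

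The genes with the most similar pattern were taken over 71 combinations of mouse and myeloid class, among 5923 genes with a mean of at least 20 CPM. These points share cells' libraries and differ in depth, so the correlations of log2(CPM + 1) are descriptions. Ccl6 was most like Ccl9 (Pearson 0.937), followed by Adgre1, which encodes the macrophage antigen F4/80 (0.913), Lrp1 (0.912), Clec4a2 (0.905) and Mitf (0.902). Ccl9 was most like Ccl6, followed by Zeb2 (0.928), Sirpa (0.907), Rbms1 (0.906) and Gda (0.902). Ccl24 was most like Vcan (0.801), a proteoglycan gene of monocytes, Thbs1 (0.778), Cdc42 (0.749), Fn1 (0.717) and Diaph2 (0.710). Its correlation was 0.630 with Ccl6 and 0.657 with Ccl9. These values span differences between classes, and within a class the order differed. Over the 16 mice in macrophages alone, Ccl6 and Ccl9 correlated at 0.538, Ccl6 and Ccl24 at 0.794 and Ccl9 and Ccl24 at 0.8045. In monocytes alone the values were 0.907, 0.808 and 0.801.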

How the data were processed

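Single-cell RNA and hashtag libraries of 8 lanes were made with 10x 3' v3 chemistry, per the labels' protocols. The deposited matrices hold UMI counts for 32285 genes and the hashtags, made by the authors with Cell Ranger 3.0.0 and bcl2fastq 2.20.0.422 on mm10, per the submitters' processing notes. The labels list 3 hashtags, and 6 of 8 matrices hold 2. Cells needed 200 or more genes and no more than 10% of counts from mitochondrial genes, and mice were assigned from at least 20 hashtag counts at a posterior of 0.9. Hashtag doublets, 11493 barcodes or 9.861%, were removed; Scrublet's automatic threshold had not worked and was used only as an alternative that removed the top 5% of scores. UMIs per mouse were 4.20 to 69.88 M.

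Cells were clustered with scanpy 1.11.5 and leidenalg 0.10.2 (2000 variable genes, 40 components, 20 neighbours, resolution 1) into 33 clusters, of which 6 stayed unnamed (11.0% of cells). The chemokines were left out of the genes used for clustering. A gate needed 2 UMIs of its markers and 20 (several genes) or 5 (1 gene) per 10000 UMIs. Counts were summed per mouse with at least 20 cells of a set and fitted over the 4 groups with edgeR 4.0.16 (quasi-likelihood, TMM, filterByExpr) in R 4.3.3. On simulated macrophage counts for CD40 against isotype in B2m-null tumours (11967 genes), 63.3% of genes lowered by log2 1 and 92% of genes raised by log2 1 were called.

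The chemokines and the gene lists were chosen with earlier results of these data known. Named genes are the chemokines, their receptors, at most 4 genes per list and contrast, those past the threshold with the largest change in macrophages, and the 5 genes most like each chemokine. Alternatives were DESeq2 1.42.0, limma 3.58.1 (voom), RLE scaling, no filter, at least 50 cells per mouse, removal of the highest Scrublet scores, thinned counts, stricter cells, hashtags and gates, resolution 2, lanes as units, the lane number as a block, and leaving out each lane. Leaving out each mouse and the lane fit with no block were added after seeing the data. In fits with lanes as units, the 2 lanes of control CD40 were summed, and cells with no assigned hashtag were included. Apart from fits that leave out 1 of the 2 control CD40 mice, contrasts with fewer than 2 mice in a group, and those of the H2-M2 and non-classical monocyte gates, are not given. One motif searched and 1 marker gene of the classical monocyte gate are not reported here.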

Additional observations from a re-analysis of the deposited data

Results flagged for a closer look

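In 3 of 27 groups of mice, 1 mouse stood apart from the others by Dixon's criterion. Chance flags about 1 in 20 groups, and since 2 of the 3 are dendritic values set aside below, nothing is read from their number. All 3 concern Ccl24. In dendritic cells of B2m-null isotype, mouse 3 of lane 1 was at 291.8 CPM, with the next mouse at 81.8 and the lowest at 34.8 CPM. In dendritic cells of B2m-null CD40, mouse 2 of lane 2 was at 1.61 CPM and the others were at 0; this is 1 count, and the criterion is always met when all other mice are at 0. Both dendritic values belong to the comparison by which Ccl24 was chosen and are given as a description. In macrophages of control isotype, mouse 2 of lane 1 was at 52.7 CPM, with the next at 29.3 and the lowest at 21.02 CPM.

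The CD40 change differed between the tumour kinds in 3 of 20 tests of that difference, all for Ccl9 within macrophage gates. The change in B2m-null tumours minus that in control tumours was 1.13 ± 0.21 in the Mmp12 gate (edgeR adjusted p = 0.00325), 0.81 ± 0.21 in the Vcam1 gate (edgeR adjusted p = 0.0337) and 1.29 ± 0.28 in the interferon-signature gate (edgeR adjusted p = 0.0109). Of all genes, 18.9% were called for this difference in macrophages, 13.2% in monocytes and 3.2% in dendritic cells. Over the gates used, the share was 0.255% to 9.12%. The gates share cells.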

How the results depend on the processing

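Of 75 results, 38 were called, and 10 stayed on the same side of the threshold with the same direction under every alternative run; among these were the 3 calls of Ccl9 in the Mmp12 gate, its calls under CD40 in the Vcam1 gate and in both contrasts of the interferon-signature gate other than the difference, and the falls of Ccl6 and Ccl9 in the classical monocyte gate of B2m-null tumours. Gate results entered the 75 only where their adjusted p was below 0.05, so 38 of 75 is not the share called over all contrasts. For gates the alternatives run were 2 other gate rules and leaving out each mouse or lane, and the others were run on macrophages, monocytes and dendritic cells only. Fits that left out 1 mouse or lane gave 1504 values on the same side, 198 that missed the threshold, 29 that newly passed it, 29 that changed sign and 25 untested values that moved. Over all genes, the number called in macrophages when lanes replaced mice as samples fell from 2697 to 761 for CD40 in control tumours, from 4305 to 2201 for CD40 in B2m-null tumours, from 1305 to 252 under isotype, from 1499 to 76 under CD40 and from 2264 to 32 for the difference of CD40 changes. In monocytes it fell from 813 to 181, from 347 to 6 and from 745 to 3 for CD40 in control tumours, under isotype and under CD40, and from 1315 to 33 for the difference, and in dendritic cells from 191 to 53 and from 803 to 92 for CD40 in control and in B2m-null tumours. Same-numbered lanes of the B2m-null groups had deviations that correlated at 0.11 in macrophages, 0.19 in monocytes and 0.10 in dendritic cells, and in the other pairs of groups at -0.086 to 0.018, so the numbers were not taken as pairs. Where control CD40 entered a fit with lanes as samples, its 2 lanes were summed, so its contrasts there rest on 1 unit. The cause of each change below was not tested. Ccl24 in control CD40 dendritic cells rests on 890931 UMIs in all. With DESeq2, these values newly passed it: macrophages Ccl24 -1.84 (CD40 in control tumours). With cells thinned to 2000 UMIs, these values missed the threshold: dendritic cells Ccl6 -1.11 (CD40 in B2m-null tumours), monocytes Ccl9 0.57 (tumour kinds under isotype). With cells thinned to 2000 UMIs, these values newly passed it: macrophages Ccl24 -2.37 (CD40 in control tumours). With cells thinned to 2000 UMIs, these values changed sign: dendritic cells Ccl6 0.030 (CD40 in control tumours), macrophages Ccl24 0.25 (difference of CD40 changes), monocytes Ccl9 -0.035 (tumour kinds under CD40). With classes from clustering at resolution 2, these values missed the threshold: dendritic cells Ccl9 -0.30 (CD40 in B2m-null tumours), Ccl6 -0.45 (CD40 in B2m-null tumours), Ccl9 0.68 (tumour kinds under isotype), monocytes Ccl9 0.46 (tumour kinds under isotype). With classes from clustering at resolution 2, these values newly passed it: macrophages Ccl9 0.41 (tumour kinds under isotype). With classes from clustering at resolution 2, these values changed sign: dendritic cells Ccl6 0.47 (tumour kinds under CD40), Ccl9 0.25 (difference of CD40 changes), macrophages Ccl9 0.0080 (CD40 in B2m-null tumours), monocytes Ccl6 -0.018 (CD40 in control tumours). With gates of at least 4 UMIs, these values missed the threshold: Ctsk gate Ccl9 -1.67 (CD40 in control tumours), Ccl6 -1.39 (CD40 in B2m-null tumours), Mmp12 gate Ccl24 -2.91 (CD40 in control tumours), classical monocyte gate Ccl9 0.66 (tumour kinds under isotype). With gates of at least 4 UMIs, these untested values moved: Ctsk gate Ccl24 -2.77 (CD40 in B2m-null tumours). With gates set on cells thinned to 2000 UMIs, these values missed the threshold: Ctsk gate Ccl9 -1.39 (CD40 in control tumours), Ccl6 -1.44 (CD40 in B2m-null tumours), Mmp12 gate Ccl24 -3.48 (CD40 in control tumours), Nos2 gate Ccl9 0.99 (tumour kinds under CD40), Vcam1 gate Ccl9 -0.48 (CD40 in control tumours), classical monocyte gate Ccl9 0.60 (tumour kinds under isotype), Ccl6 0.64 (tumour kinds under isotype), interferon-signature gate Ccl24 -3.44 (CD40 in control tumours), Ccl6 -0.74 (CD40 in control tumours), resident-like gate Ccl6 0.15 (CD40 in B2m-null tumours). With lanes replacing mice as samples, these values missed the threshold: dendritic cells Ccl9 -0.71 (CD40 in B2m-null tumours), Ccl6 -0.84 (CD40 in B2m-null tumours), Ccl9 0.63 (tumour kinds under isotype), macrophages Ccl9 -0.78 (CD40 in control tumours), Ccl24 1.73 (tumour kinds under isotype), Ccl9 1.02 (tumour kinds under CD40), monocytes Ccl6 -0.52 (CD40 in B2m-null tumours), Ccl9 0.56 (tumour kinds under isotype). With limma-voom, these values missed the threshold: dendritic cells Ccl6 -1.32 (CD40 in B2m-null tumours). With limma-voom, these values newly passed it: macrophages Ccl24 -1.99 (CD40 in control tumours). With limma-voom, these untested values moved: dendritic cells Ccl24 2.60 (tumour kinds under isotype), monocytes Ccl24 -5.93 (CD40 in B2m-null tumours). With no filter on low counts, these values newly passed it: dendritic cells Ccl6 0.83 (tumour kinds under isotype), Ccl6 -1.18 (difference of CD40 changes), macrophages Ccl24 -1.92 (CD40 in control tumours), monocytes Ccl24 -2.44 (CD40 in control tumours), Ccl24 1.81 (tumour kinds under isotype), Ccl6 0.47 (tumour kinds under isotype), Ccl6 -0.56 (difference of CD40 changes). In the lanes of 3 groups with no replicate block, these values missed the threshold: dendritic cells Ccl9 -0.68 (CD40 in B2m-null tumours), Ccl6 -0.81 (CD40 in B2m-null tumours), Ccl9 0.62 (tumour kinds under isotype), macrophages Ccl24 1.72 (tumour kinds under isotype), monocytes Ccl6 -0.55 (CD40 in B2m-null tumours), Ccl9 0.56 (tumour kinds under isotype). In the same lanes with the lane number as replicate block, these values missed the threshold: dendritic cells Ccl9 -0.70 (CD40 in B2m-null tumours), Ccl6 -0.85 (CD40 in B2m-null tumours), Ccl9 0.63 (tumour kinds under isotype), monocytes Ccl6 -0.65 (CD40 in B2m-null tumours), Ccl9 0.58 (tumour kinds under isotype). With the stricter cell filter, these values missed the threshold: monocytes Ccl9 0.57 (tumour kinds under isotype). With the stricter cell filter, these values newly passed it: macrophages Ccl24 -1.96 (CD40 in control tumours), monocytes Ccl24 2.18 (tumour kinds under isotype). With the stricter cell filter, these values changed sign: dendritic cells Ccl6 0.00061 (CD40 in control tumours). With stricter hashtag assignment, these values missed the threshold: dendritic cells Ccl6 -1.33 (CD40 in B2m-null tumours), monocytes Ccl9 -0.52 (CD40 in B2m-null tumours), Ccl6 -0.31 (CD40 in B2m-null tumours), Ccl9 0.50 (tumour kinds under isotype). With stricter hashtag assignment, these values newly passed it: macrophages Ccl6 0.55 (tumour kinds under isotype). With stricter hashtag assignment, these values changed sign: monocytes Ccl6 0.094 (tumour kinds under CD40). Without the highest Scrublet scores, these values missed the threshold: dendritic cells Ccl9 0.69 (tumour kinds under isotype). Without the highest Scrublet scores, these values changed sign: dendritic cells Ccl6 0.23 (CD40 in control tumours).

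Leaving out 1 mouse or 1 lane in turn gave the following lowest and highest log2 changes for the results that changed their side of the threshold, their sign or their size. In the Arg1 gate the ranges were Ccl9 0.36 to 1.05 (tumour kinds under CD40), Ccl24 2.08 to 2.53 (tumour kinds under isotype), Ccl24 -4.49 to -1.97 (CD40 in B2m-null tumours), Ccl9 -0.84 to -0.53 (CD40 in control tumours). In the Ctsk gate the ranges were Ccl24 -7.32 to -3.03, Ccl6 -2.67 to -0.84 (CD40 in B2m-null tumours), Ccl9 -2.14 to -1.26 (CD40 in control tumours). In the Mmp12 gate the ranges were Ccl24 1.82 to 2.64 (tumour kinds under isotype), Ccl24 -4.63 to -2.73 (CD40 in B2m-null tumours), Ccl24 -3.44 to -2.65 (CD40 in control tumours). In the Nos2 gate the ranges were Ccl9 0.54 to 1.34 (tumour kinds under CD40). In the Vcam1 gate the ranges were Ccl9 0.35 to 0.59 (tumour kinds under isotype), Ccl9 0.68 to 0.96 (difference of CD40 changes), Ccl9 -0.66 to -0.42 (CD40 in control tumours). In the classical monocyte gate the ranges were Ccl24 0.86 to 2.49, Ccl6 0.58 to 0.82, Ccl9 0.53 to 0.85 (tumour kinds under isotype), Ccl24 -8.33 to -3.60 (CD40 in B2m-null tumours). In dendritic cells the ranges were Ccl6 -0.93 to 1.00, Ccl9 -0.10 to 1.54 (tumour kinds under CD40), Ccl24 1.29 to 4.08, Ccl6 0.48 to 1.10, Ccl9 0.60 to 1.00 (tumour kinds under isotype), Ccl6 -1.77 to 0.16, Ccl9 -0.94 to 0.70 (difference of CD40 changes), Ccl6 -2.003 to -1.06, Ccl9 -1.47 to -0.89 (CD40 in B2m-null tumours), Ccl6 -1.59 to 0.29, Ccl9 -1.82 to -0.19 (CD40 in control tumours). In the interferon-signature gate the ranges were Ccl24 1.09 to 2.25 (tumour kinds under isotype), Ccl9 0.94 to 1.55 (difference of CD40 changes), Ccl24 -3.92 to -2.78, Ccl6 -0.70 to -0.38 (CD40 in B2m-null tumours), Ccl24 -8.21 to -2.92, Ccl6 -1.06 to -0.46 (CD40 in control tumours). In macrophages the ranges were Ccl24 -0.020 to 1.88, Ccl6 -0.50 to 0.11, Ccl9 0.68 to 1.17 (tumour kinds under CD40), Ccl24 1.49 to 2.12, Ccl9 0.26 to 0.50 (tumour kinds under isotype), Ccl24 -1.83 to 0.082, Ccl6 -0.89 to -0.27, Ccl9 0.31 to 0.81 (difference of CD40 changes), Ccl24 -3.75 to -1.86, Ccl6 -0.66 to -0.057, Ccl9 -0.34 to 0.12 (CD40 in B2m-null tumours), Ccl24 -2.38 to -1.38, Ccl9 -0.89 to -0.46 (CD40 in control tumours). In monocytes the ranges were Ccl24 -4.04 to 1.58, Ccl6 -0.85 to 0.35, Ccl9 -0.26 to 0.45 (tumour kinds under CD40), Ccl24 0.98 to 2.46, Ccl6 0.44 to 0.56, Ccl9 0.53 to 0.69 (tumour kinds under isotype), Ccl24 -5.85 to -0.23, Ccl6 -1.34 to -0.14, Ccl9 -0.87 to -0.15 (difference of CD40 changes), Ccl24 -8.28 to -3.73, Ccl6 -1.28 to -0.073, Ccl9 -1.13 to -0.41 (CD40 in B2m-null tumours), Ccl6 -0.13 to 0.23 (CD40 in control tumours). In the resident-like gate the ranges were Ccl6 0.33 to 0.51 (CD40 in B2m-null tumours), Ccl6 0.53 to 0.80 (CD40 in control tumours).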

Other observations

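Ccl24 was also found outside macrophages, monocytes and dendritic cells. In plasmacytoid dendritic cells it was at 10.8, 10.1, 17.02, 12.1 and 0 CPM in control isotype and at 38.9, 92.2, 351, 44.55 and 146.5 CPM in B2m-null isotype, and the mice did not overlap. In neutrophils it was at 36.3, 9.76 and 10.7 CPM in control isotype and at 1965, 934 and 32.5 CPM in B2m-null isotype. In the latter group, after thinning to 1000 UMIs, 8 of 139 neutrophils held all 58 Ccl24 counts, a mean of 7.25 each. These values were not tested, and the part of other cells captured with the neutrophils was not tested.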
